A study of Mus musculus with 16 samples.

Results

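Liver RNA was compared between HIRA KO and control mice in the 8 libraries whose columns of the deposited count table carry the numbers 3 and 4, out of 16 libraries in the series. These were 4 HIRA KO and 4 control libraries, with 2 of each genotype before and 2 after liver regeneration. Columns 3 and 4 were singled out because the HIRA KO libraries under these numbers lay among the controls in the expression profile of the whole series, so they were chosen by measured values. HIRA KO against control in them is therefore given as a description, with no p-value, and the genes called in it are counted without reading a test from the count. The running number stands in no label, and the columns do not give the mouse or the deletion approach.

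All mice were C57BL/6 males that received an adeno-associated virus (AAV8) at 6 months of age. HIRA KO was made either with AAV8-Tbg-Cre given to HIRA fl/fl mice or with AAV8-Tbg-saCas9-sgRNA-HIRA given to wildtype mice, and the controls were wildtype mice given AAV8-Tbg-Cre or the same Cas9 vector with a guide to Rosa26. Tbg is a hepatocyte promoter, so the other cells of the liver kept an intact Hira gene, and in whole liver fewer cells of a type and less RNA per cell cannot be told apart. Part of the liver was resected 4 weeks after the virus and served as the tissue before regeneration, and the lobes left behind were collected 5 days later as the tissue after it. Lobe, way of collection and time therefore changed together and cannot be told apart, and the 2 tissues may come from the same mice, which the columns do not show.

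HIRA is the central subunit of a chaperone complex for H3.3, a variant of histone H3 that can be deposited without DNA replication. UBN1, UBN2 and CABIN1 are its partners, and ASF1A hands it the histones. H3.3 is encoded by H3f3a and H3f3b. It accumulates in cells that seldom divide, of which the hepatocyte is an example, whereas the replication-dependent H3 histones enter chromatin when cells divide, as hepatocytes do after partial resection of the liver.

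The 8 libraries held between 15103059 and 19519139 counts, and between 4.14% and 6.97% of them came from mitochondrial genes. On the second principal component of all 16 libraries (26.5% of the variance), the HIRA KO libraries of columns 1 and 2 scored between -47.4 and -36.2. Those of columns 3 and 4 scored 1.67 and -0.455 before and 23.3 and 18.8 after regeneration, against 10.3 and 10.1 and against 30.8 and 31.2 in the controls with the same numbers. Markers of the labelled tissue were high, and 26 hepatocyte genes summed to between 161000 and 194000 CPM (counts scaled by library size with TMM factors) in every library.

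**Figure D1:**
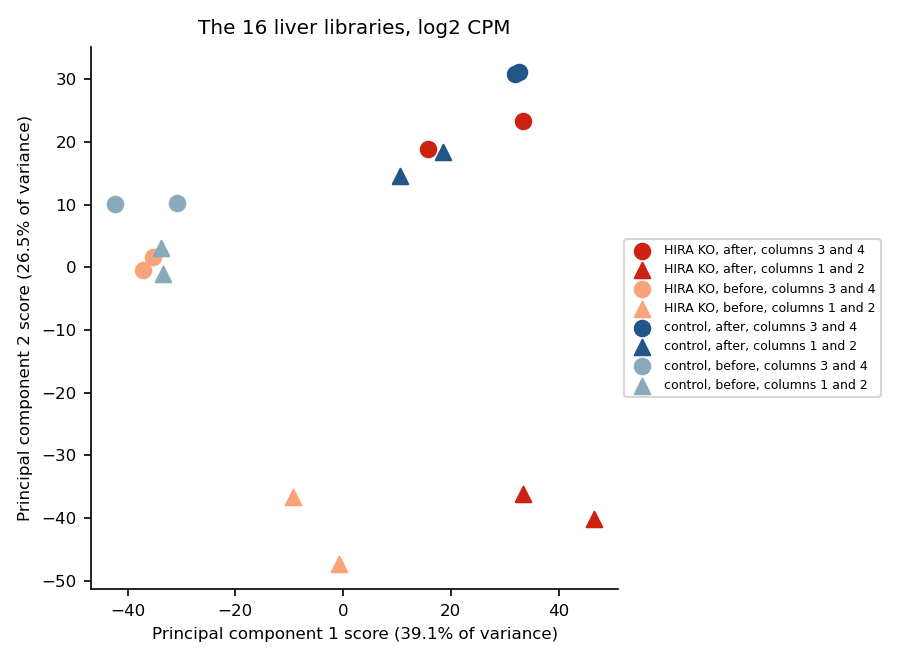
Scores of the 16 liver libraries on the first (39.1% of the variance) and second (26.5%) principal components of log2 expression; circles are columns 3 and 4, triangles columns 1 and 2, and colours mark genotype and time. The HIRA KO circles lie between -0.455 and 23.3 on the second component, among the controls, and the HIRA KO triangles at -36.2 or below.

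Hira, the targeted gene (chromosome 16, 18877037 to 18970309, build GRCm38), was measured at 6.17 and 5.09 CPM in the control libraries before and 5.85 and 6.26 after regeneration. In the HIRA KO libraries it was measured at 3.23 and 4.38 before and 3.08 and 4.54 after. Both HIRA KO libraries were below both controls at each time point. The log2 fold change was -0.62 ± 0.18 (SE, 4 against 4 libraries), to a ratio of 0.651, and the gene was not called, where called means an adjusted p under 0.05 by edgeR's quasi-likelihood test over all genes. Called serves here as a label for a difference that is large against the spread, and not as a test of genes in columns chosen by their values. In simulated data of this design the share of false calls was above the nominal level, so some of the genes called may not differ. In columns 1 and 2 the log2 fold change of Hira was -0.77 ± 0.15, and the gene was called there. The counts are per gene and do not separate the edited part of Hira from the rest of it.

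Among the partners of HIRA, Ubn1 and Ubn2 had log2 fold changes of -0.01 ± 0.11 and 0.005 ± 0.12, Cabin1 -0.14 ± 0.11 and Asf1a 0.40 ± 0.16, and none was called. Of the 2 genes of H3.3, H3f3a (chromosome 1, 180800832 to 180813943) was called higher, and stood at 54.8 and 59.9 CPM in the control libraries before and 62.2 and 57.3 after, and at 77.7 and 88.9 in the HIRA KO libraries before and 84.6 and 81.3 after. All 4 HIRA KO libraries lay above all 4 controls, with a log2 fold change of 0.51 ± 0.08. H3f3b, its second copy, stood at 190 and 174 CPM in the control libraries before and 170 and 187 after, and at 166 and 184 in the HIRA KO libraries before and 235 and 190 after, with overlapping groups and a log2 fold change of 0.10 ± 0.11. The difference between the 2 genes was not tested. When 1 library at a time was left out, the log2 fold change of H3f3a stayed between 0.46 and 0.54, and the gene was called in 1 of the 8 fits. In columns 1 and 2 H3f3a was at 0.93 ± 0.11 and H3f3b at 0.51 ± 0.14, both called. H3f3a overlaps antisense genes, and the strand setting of the counting is not stated, so their reads may be included.

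Over the whole table, 31 of 20199 genes were called between HIRA KO and control in columns 3 and 4 (0.153%). Of these, 24 were higher in HIRA KO (0.119%) and 7 lower (0.0347%). In 17 of them the level differed by over 1 on the log2 scale. The count was 153 with DESeq2 and 0 on log2(FPKM + 1) with limma-trend, and ran from 15 (without control after 4) to 66 (without HIRA KO after 4) when 1 library was left out. Of the 31 genes, 13 were called in all 8 of these fits. In each of the 31 genes the HIRA KO and control libraries did not overlap at either time point, where over all genes 4.79% did not overlap in the higher and 4.04% in the lower direction. The 31 genes were called on these same libraries, which favours the absence of overlap, so it adds no support to the calls. The gene called with the smallest margin on either side was Scamp5 (0.59) among the higher and Polr3gl (-0.90) among the lower genes, and the nearest genes outside the threshold were Akr1b7 (-2.13) and Mpv17l (0.91). The same genes tested in columns 1 and 2 gave 3347 calls (16.6%), 1501 higher and 1846 lower. The median absolute log2 fold change over all genes was 0.17 in columns 3 and 4 and 0.328 in columns 1 and 2.

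**Figure D2:**
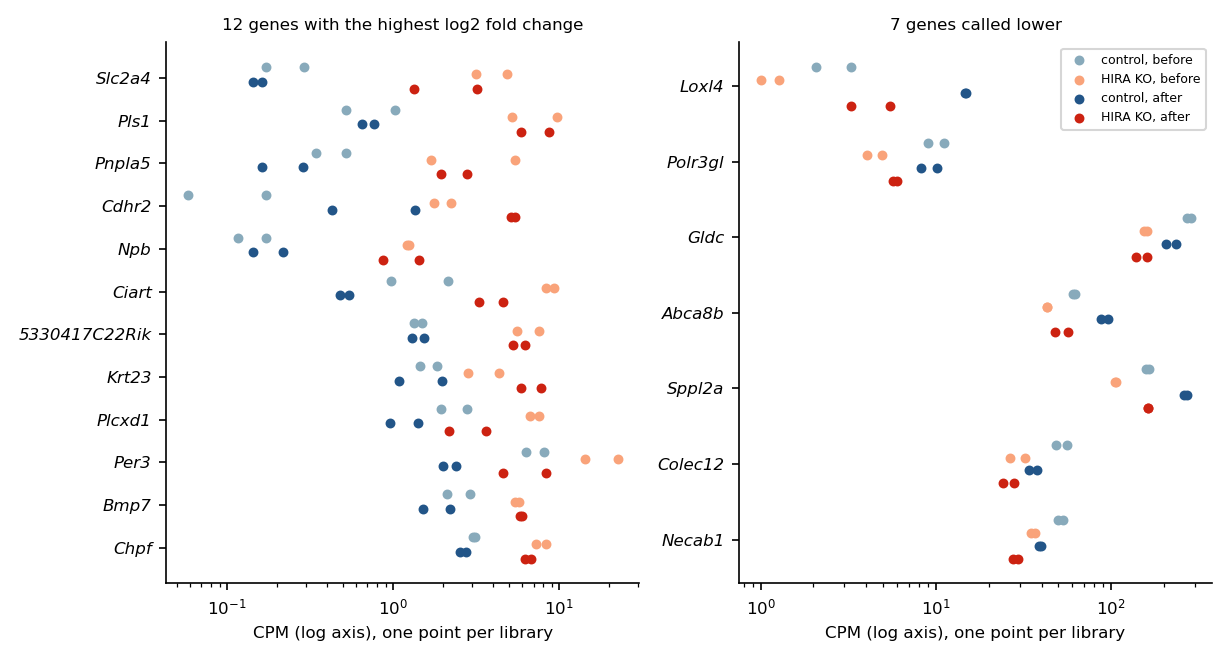
CPM on a log axis of the 12 called genes with the highest log2 fold change (left) and the 7 genes called lower (right) in columns 3 and 4, 1 point per library, coloured by genotype and time. Within each time point the HIRA KO and control points of each gene do not overlap, which a call on the same libraries favours.

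The largest difference was in Slc2a4 (chromosome 11, 69942539 to 69948188), which encodes GLUT4, the insulin-responsive glucose transporter known from muscle and fat. It stood at 0.172 and 0.289 CPM in the control libraries before and 0.163 and 0.143 after, and at 3.17 and 4.88 in the HIRA KO libraries before and 3.18 and 1.33 after. Every HIRA KO library was far above every control library, which held only 3 to 5 counts each. The log2 fold change was 3.98 ± 0.39, and the ratio of the summed counts, scaled for depth, was 16.3 (95% interval 9.53 to 30.4, counting error only). In columns 1 and 2 it was 2.64 ± 0.64, also called. The controls there stood at 1.9 and 0.597 CPM before and 1.87 and 0.173 after, against 5.03 and 5.79 and then 6.27 and 12.4 in HIRA KO. Under the other settings for columns 3 and 4, Slc2a4 was called in 7 of 11, with log2 fold changes from 0.97 to 4.1.

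The genes called higher included 2 of the brush border, the microvillus surface that in the liver lines the bile canaliculus. Pls1, an actin bundler of microvilli (chromosome 9, 95752642 to 95845311), stood at 1.03 and 0.521 CPM in the control libraries before and 0.65 and 0.765 after, and at 5.19 and 9.76 in the HIRA KO libraries before and 8.72 and 5.87 after. All HIRA KO libraries were above all controls by a log2 fold change of 3.31 ± 0.28. Cdhr2, a protocadherin that links the tips of microvilli (chromosome 13, 54701461 to 54736662), stood at 0.172 and 0.0579 CPM in the control libraries before and 1.35 and 0.43 after, and at 2.22 and 1.75 in the HIRA KO libraries before and 5.44 and 5.15 after. The controls held 1 to 25 counts, the log2 fold change was 2.97 ± 0.38, and the ratio of the summed counts was 7.48 (95% interval 5.31 to 10.8, counting error only). Of the 10 tested brush border genes these 2 were called, 9 had a positive log2 fold change and the median was 0.39, against a median of 0.0027 and 50.5% positive over all genes. The list was chosen with earlier results of these data known, so these values are a description only. Vil1, the actin-severing villin of microvilli, was at 1.59 ± 0.42 without a call, and Myo7b, the myosin of the same tip links, at 0.51 ± 0.47, with overlapping libraries. In columns 1 and 2 the values were 2.92 for Pls1, 3.87 for Cdhr2, 4.48 for Vil1 and 3.23 for Myo7b. Bile duct cells also carry microvilli. In columns 3 and 4 the 14 cholangiocyte markers had a median of 0.076, from -0.997 to 1.37, with none called. They summed to 85.7 to 112 CPM in control and 85.3 to 103 in HIRA KO before, and to 119 to 126 and 110 to 141 after regeneration. In columns 1 and 2 their median was 1.58, with 4 called higher and 1 lower, where 16.6% of all genes were called. The part of bile duct cells in these values was not tested.

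Pnpla5, a lipase of the patatin family, stood at 0.343 and 0.521 CPM in the control libraries before and 0.163 and 0.287 after, and at 1.68 and 5.38 in the HIRA KO libraries before and 2.79 and 1.94 after, with a log2 fold change of 3.16 ± 0.41 and a ratio of the summed counts of 9.05 (95% interval 5.91 to 14.4, counting error only). Npb, which encodes the signalling peptide neuropeptide B, was low in every library, at 0.172 and 0.116 CPM in the control libraries before and 0.217 and 0.143 after, and at 1.21 and 1.25 in the HIRA KO libraries before and 0.867 and 1.44 after. Its controls held 2 to 4 counts each, and the ratio of the summed counts was 7.27 (95% interval 3.95 to 14.6, counting error only). HIRA KO was above control in both genes at each time point, and in Pnpla5 the 2 HIRA KO libraries before regeneration differed widely from each other.

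The gene listed as 5330417C22Rik (chromosome 3, 108455694 to 108536536) stood at 1.49 and 1.33 CPM in the control libraries before and 1.3 and 1.53 after, and at 5.59 and 7.51 in the HIRA KO libraries before and 5.3 and 6.26 after, so that the HIRA KO libraries were closely grouped above the controls. Krt23, a type I keratin, stood at 1.83 and 1.45 CPM in the control libraries before and 1.08 and 1.96 after, and at 2.83 and 4.32 in the HIRA KO libraries before and 7.8 and 5.92 after, with a log2 fold change of 1.67 ± 0.27. These 2 genes were further from control in columns 1 and 2, at 4.81 ± 0.33 and 4.66 ± 0.51, than in columns 3 and 4, where 5330417C22Rik was at 2.11 ± 0.19. Bmp7, a ligand of the bone morphogenetic protein family, stood at 2.12 and 2.89 CPM in the control libraries before and 1.52 and 2.2 after, and at 5.39 and 5.76 in the HIRA KO libraries before and 5.83 and 5.98 after (log2 fold change 1.40 ± 0.19). Chpf, an enzyme that lengthens chondroitin chains, stood at 3.03 and 3.13 CPM in the control libraries before and 2.76 and 2.53 after, and at 8.35 and 7.26 in the HIRA KO libraries before and 6.79 and 6.2 after (1.32 ± 0.15). With 1 library left out in turn, Chpf and 5330417C22Rik kept their call 8 times of 8, Bmp7 7 times and Krt23 3 times.

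Car14, a carbonic anhydrase of the cell membrane (chromosome 3, 95897768 to 95904691), stood at 48.7 and 41.4 CPM in the control libraries before and 22.6 and 22.9 after, and at 79.5 and 102 in the HIRA KO libraries before and 60.6 and 68.6 after. Its log2 fold change was 1.26 ± 0.12. It lies 15517 bases from Ciart, another called gene described with the clock genes. The 12 other genes with a mean of at least 1 CPM within 200 kb of the pair had log2 fold changes between -0.24 and 0.36, and none was called. Car14 overlaps Aph1a on the other strand, a gene at -0.02 in the same comparison.

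The remaining genes called higher had log2 fold changes between 0.51 (H3f3a) and 1.45 (Plcxd1). They included Gria3, a subunit of the AMPA glutamate receptor (1.21 ± 0.16), Cpm, a carboxypeptidase of the cell surface (0.95 ± 0.16), Il18, a cytokine activated by inflammasomes (0.88 ± 0.14), Nudt18, a nucleotide hydrolase (0.75 ± 0.11), Scamp5, a secretory carrier membrane protein (0.59 ± 0.10), and Thnsl2, a threonine synthase-like protein (0.53 ± 0.09). Tlcd2, a membrane protein with a TLC domain, stood at 95.3 and 88.2 CPM in the control libraries before and 44.3 and 45.2 after, and at 174 and 198 in the HIRA KO libraries before and 123 and 88.5 after. It shares its strand with the host gene of miR-22 (Mir22hg), so reads may be split between them. Tmem200b (1.14 ± 0.19) and the gene listed as 5033406O09Rik (0.95 ± 0.13) completed the set together with Mup22 and Plcxd1. When each library was dropped in turn, Gria3, Tlcd2 and 5033406O09Rik kept their call in 8 of 8 fits, Mup22 in 6, Plcxd1 in 5, Il18 and Nudt18 in 4, Tmem200b in 2 and Cpm, Scamp5 and Thnsl2 in 1.

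Among the 7 genes called lower, the difference was largest in Loxl4, a lysyl oxidase-like enzyme that crosslinks matrix (chromosome 19, 42593982 to 42612813). It stood at 3.26 and 2.08 CPM in the control libraries before and 14.7 and 14.8 after, and at 1.28 and 1 in the HIRA KO libraries before and 5.49 and 3.27 after. HIRA KO was lower at both time points, with a log2 fold change of -1.56 ± 0.22, while the gene itself rose with regeneration (log2 fold change 2.26 ± 0.22, edgeR adjusted p = 2.2e-05). Gldc, the glycine decarboxylase of the mitochondrial glycine cleavage system (chromosome 19, 30098447 to 30175429), stood at 272 and 283 CPM in the control libraries before and 206 and 234 after, and at 160 and 153 in the HIRA KO libraries before and 159 and 139 after. Its log2 fold change was -0.69 ± 0.10, a ratio of 0.619.

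Sppl2a, an intramembrane protease of lysosomes and endosomes, stood at 165 and 158 CPM in the control libraries before and 260 and 269 after, and at 107 and 105 in the HIRA KO libraries before and 161 and 163 after, with little spread within each pair and a log2 fold change of -0.66 ± 0.08. Polr3gl, a subunit of RNA polymerase III, was at -0.90 ± 0.16, and Abca8b, a membrane transporter of the ABC family, at -0.67 ± 0.09. Colec12, a scavenger receptor of the collectin family, was at -0.65 ± 0.11, and Necab1, a calcium-binding protein, at -0.49 ± 0.08. All 7 were also called lower in columns 1 and 2, with a median of -1.40 there and -0.67 in columns 3 and 4. Sppl2a kept its call in 8 of the 8 fits with a library dropped, Loxl4 and Abca8b in 7, Gldc in 5 and Polr3gl, Colec12 and Necab1 in 2.

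Some genes had large negative values without a call. Akr1b7, an aldo-keto reductase, stood at 0.4 and 0.289 CPM in the control libraries before and 7.37 and 4.02 after, and at 0.202 and 0 in the HIRA KO libraries before and 1.16 and 1.33 after, with 0 to 7 counts per library before regeneration, and its log2 fold change was -2.13 ± 0.38 here and 2.05 ± 0.90 in columns 1 and 2. Ndrg1, a stress-responsive gene, stood at 11.4 and 18.5 CPM in the control libraries before and 42.4 and 35.9 after, and at 7.81 and 9.82 in the HIRA KO libraries before and 10.2 and 9.69 after. Its libraries did not overlap at either time, with -0.76 before and -1.98 after regeneration. Spata22, a meiotic gene (-1.51 ± 0.29), and the gene listed as Gm12498 (-1.35 ± 0.25) were also uncalled here, and both were called lower in columns 1 and 2, at -2.57 and -3.41.

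The transcription factors of the circadian clock formed the list with the largest share of genes whose libraries did not overlap. The clock of the liver is a feedback loop: BMAL1 (Arntl) with CLOCK or NPAS2 activates genes through E-boxes, the PER, CRY and CIART proteins repress that activation, NR1D1 and NR1D2 repress Arntl, and DBP, TEF and HLF activate while NFIL3 represses genes through D-boxes. Of 19 clock genes tested, 2 were called, Ciart and Per3, both higher. Without overlap at either time point, 8 were higher and 4 lower in HIRA KO, against 4.79% and 4.04% of all genes, and the median was 0.29. The same list had no call in columns 1 and 2 and a median of 0.16.

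**Figure D3:**
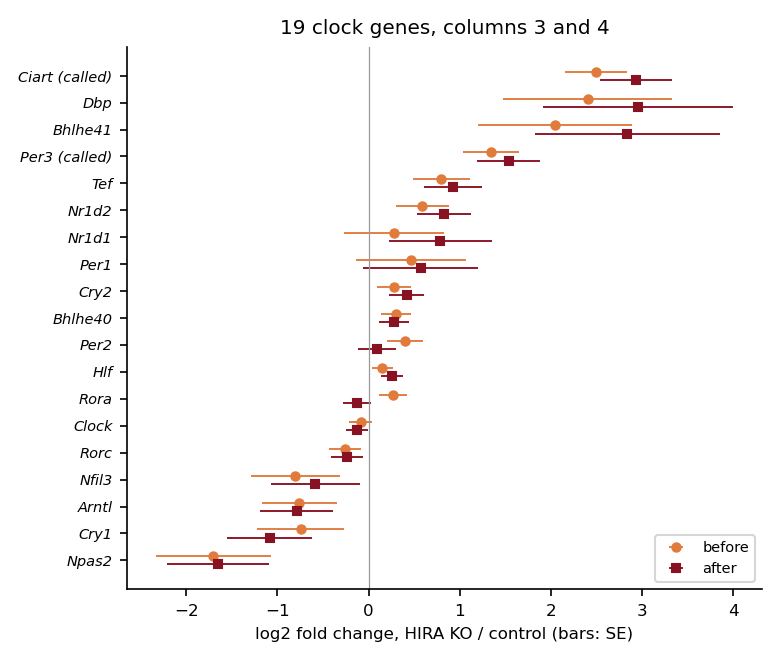
Log2 fold changes of HIRA KO against control with SE for the 19 clock genes of columns 3 and 4, before (circles) and after regeneration (squares), ordered by their joint value. Ciart, Dbp, Bhlhe41 and Per3 lie at the positive end, and Npas2, Cry1, Arntl and Nfil3 at the negative end, at both times.

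Ciart, a repressor of BMAL1 and CLOCK (chromosome 3, 95878503 to 95882251), stood at 0.972 and 2.14 CPM in the control libraries before and 0.542 and 0.478 after, and at 9.3 and 8.32 in the HIRA KO libraries before and 4.57 and 3.27 after. The HIRA KO libraries were several fold above the controls, with a log2 fold change of 2.67 ± 0.25. Per3, a period gene (chromosome 4, 151003652 to 151044665), stood at 8.12 and 6.31 CPM in the control libraries before and 2 and 2.39 after, and at 14.2 and 22.5 in the HIRA KO libraries before and 4.57 and 8.3 after. HIRA KO was above control at each time point (1.43 ± 0.21), and Per3 was lower after regeneration than before it in both genotypes. Neither was called in columns 1 and 2, where the times were uneven: Ciart was at 1.49 before and 5.56 after, and Per3 at 0.42 before and 3.32 after. In columns 3 and 4 the 2 times gave 2.50 and 2.93 for Ciart and 1.35 and 1.54 for Per3. With a library dropped in turn, Ciart kept its call in 8 of 8 fits and Per3 in 4 of 8, with values between 1.24 and 1.58. Per3 lost its call without control before 4, HIRA KO before 4, control after 3 or control after 4. Under the other settings Ciart was called in 10 of 11 and Per3 in 5 of 11.

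The promoters of these 2 called clock genes are shown with letter matches to the E-box or the D-box. Binding and activity at these matches were not measured. They were read from RefSeq on GRCm38.p6, 5′ to 3′ on the minus strand of the gene, and end upstream of the annotated gene body. Ciart is shown for chr3:95882252-95882478 with E-boxes (CACGTG) in capitals, and Per3 for chr4:151044666-151044915 with D-boxes (TTATGTAA) in capitals.
Ciart: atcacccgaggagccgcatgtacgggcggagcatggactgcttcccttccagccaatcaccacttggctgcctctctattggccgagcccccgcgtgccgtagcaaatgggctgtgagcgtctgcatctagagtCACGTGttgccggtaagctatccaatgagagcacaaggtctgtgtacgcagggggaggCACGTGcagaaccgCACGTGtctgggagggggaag
Per3: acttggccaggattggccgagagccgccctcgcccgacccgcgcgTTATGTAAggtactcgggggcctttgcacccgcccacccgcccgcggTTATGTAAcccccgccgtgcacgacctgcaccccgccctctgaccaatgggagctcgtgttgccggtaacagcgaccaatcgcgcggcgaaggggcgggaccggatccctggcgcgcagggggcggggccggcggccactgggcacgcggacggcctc
The stretch of Ciart held 3 E-boxes and that of Per3 held 2 D-boxes. In the 250 bases upstream of the start, searched on both strands, an E-box was present in 5 of the 22 called genes with a RefSeq promoter (22.7%) and in 6.86% of all 27025 genes. Those 5 genes were Ciart, Krt23, Plcxd1, Pnpla5 and Polr3gl. A D-box (TTATGTAA or TTACGTAA) was present in Per3 alone of the 22 (4.55%) and in 1.1% of all genes, and the nuclear receptor element AGGTCA in 3 of the 22 (13.6%) and in 15.8% of all genes. A match describes the letters only.

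Other clock genes lay apart without a call. Dbp, an activator at D-boxes, stood at 7.09 and 7.18 CPM in the control libraries before and 0.867 and 3.16 after, and at 26.3 and 49.1 in the HIRA KO libraries before and 5.73 and 26.4 after. Both HIRA KO libraries exceeded both controls at each time, but the 2 HIRA KO libraries after regeneration differed from each other by several fold, and the log2 fold change was 2.64 ± 0.63. Tef, its relative, was at 0.86 ± 0.20, Nr1d2 at 0.71 ± 0.19 and Bhlhe41, a repressor at E-boxes, at 2.36 ± 0.60.

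In the negative direction, Npas2 stood at 6.69 and 5.27 CPM in the control libraries before and 14.1 and 8.8 after, and at 2.63 and 1.06 in the HIRA KO libraries before and 5.35 and 1.83 after (-1.68 ± 0.37). Arntl was at -0.78 ± 0.25, Cry1 at -0.92 ± 0.31 and Nfil3 at -0.69 ± 0.31, again with HIRA KO below control within each time. Clock itself was at -0.11 ± 0.09. The joint values in columns 1 and 2 were 2.21 for Dbp, 0.89 for Tef, -1.37 for Npas2, -0.77 for Arntl and -0.82 for Nfil3, without a call. Bhlhe41 was at 0.99 there, Nr1d2 at 0.40, Clock at 0.03 and Cry1 at -0.02 (0.21 before and -0.24 after), also uncalled. Nr1d1 was at 0.53 in columns 3 and 4 and -0.11 in columns 1 and 2, and Bhlhe40 at 0.29 and -0.07. After regeneration in columns 1 and 2, Dbp was at 4.28, Tef at 1.94, Npas2 at -3.01, Arntl at -1.96 and Nfil3 at -1.68. Before it they were at 0.55, -0.14, 0.57, 0.48 and 0.08. The difference between the 2 sets of columns was not tested. The resections were done in the morning according to the methods of the study, and the hour at which each library was taken is not in the labels, so the part of collection time in these values was not tested.

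**Figure D4:**
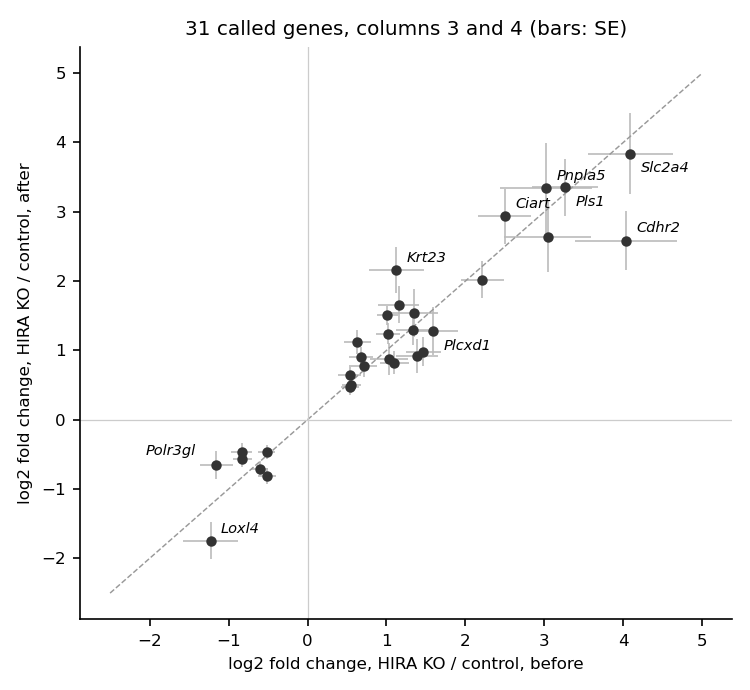
Log2 fold changes of HIRA KO against control with SE for the 31 called genes of columns 3 and 4, before regeneration (x axis) against after (y axis), with the line of equal values. All 31 genes have the same sign at both times, and the largest gap between the 2 values is 1.44; genes were called over both times together, which favours this.

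Whether the difference between HIRA KO and control changed with regeneration was tested by the interaction of genotype and time. The columns were chosen with the libraries of both times in view, so this test is not independent of that choice. The 31 genes called over both times do not answer whether the difference changed, since an additive fit favours genes that differ alike at both times. They had the same sign before and after, and the widest gap between the 2 log2 fold changes was 1.44, in Cdhr2, with 4.03 ± 0.65 before and 2.58 ± 0.43 after. Over all genes 1 was called for the interaction (0.00495%), with 1577 at an unadjusted p under 0.05. The number of interaction calls was 64 with DESeq2 and 0 with the filter filterByExpr, and ran from 0 to 38 when 1 library was left out.

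The called gene was mt-Atp6, a subunit of ATP synthase encoded in the mitochondrial genome, which stood at 104 and 110 CPM in the control libraries before and 38.4 and 57.7 after, and at 31 and 29.7 in the HIRA KO libraries before and 77.1 and 93.6 after. HIRA KO was below control before regeneration and above it after, and the interaction was 2.65 ± 0.25 (edgeR, adjusted p = 0.0164). mt-Nd3, a subunit of complex I, had the same order of libraries (at 8.35 and 11.8 CPM in the control libraries before and 4.12 and 6.79 after, and at 3.03 and 3.94 in the HIRA KO libraries before and 10.7 and 13 after) without a call. mt-Atp6 stayed between 2.36 and 2.96 for the interaction with 1 library left out, and was called under 3 of the 5 other settings. In columns 1 and 2 its controls before regeneration stood at 92.8 and 32.1 CPM, against 26.9 and 23.3 in HIRA KO. Those of mt-Nd3 stood at 10.4 and 4.23, against 3.07 and 2.2. The log2 fold changes there were -1.31 before and 0.22 after for mt-Atp6 and -1.47 and 0.65 for mt-Nd3. The interaction was not tested there. mt-Atp6 overlaps mt-Atp8 and mt-Co3, so reads may be split among them. Of the 13 protein genes of the mitochondrial genome 2 had a positive log2 fold change over both times, and the median was -0.18. The list median was -0.20 before and 0.02 after regeneration. Outside the mitochondrial genome, the gene listed as Gm5096 had an interaction of 2.05 ± 0.27, also without a call.

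Between the tissues before and after regeneration, adjusted for genotype, 5398 genes were called in these 8 libraries (26.7%), 2762 upward and 2636 downward. Lobe, way of collection and time are not separated in this contrast. The rise was largest in Ly6d, a membrane-anchored surface protein, by 7.63 ± 0.75 on the log2 scale (edgeR, adjusted p = 0.0014). Cyp3a41a, a cytochrome P450, rose by 7.16 and Gpx2, a glutathione peroxidase, by 6.85. Ppp1r3g, a glycogen-targeting phosphatase subunit, fell by 8.23, the gene listed as Gm28513 by 6.77 and the immediate early gene Fosb by 4.64. Cyp3a41a did not rise in the library HIRA KO after 4, which held 0.0554 CPM against 7.48 to 13.6 in the other 3 libraries after regeneration, and its call with time was kept in 2 of 8 fits with a library dropped (6.56 to 8.35), those without HIRA KO after 3 or HIRA KO after 4. Of the 31 genes, 16 were also called with regeneration, 8 of them upward.

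Proliferation genes rose with regeneration, and all 24 mitotic genes and 22 of 24 DNA replication genes were called upward. Mki67, the proliferation marker, stood at 2.23 and 0.984 CPM in the control libraries before and 70.5 and 77.2 after, and at 1.55 and 1.81 in the HIRA KO libraries before and 73.3 and 26.8 after. The library HIRA KO after 4 was lower than the other 3 after regeneration, and Top2a, a topoisomerase of dividing cells, followed it with 14.7 CPM against 41.5 to 59.2. Summed over the mitotic genes, the 2 HIRA KO libraries after regeneration held 202 and 771 CPM and the controls 653 and 811. Between HIRA KO and control none of the 24 mitotic genes was called, 1 had a positive log2 fold change and the median was -0.57. None of the 24 replication genes was called either, with a median of -0.23.

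Lists of hepatocyte identity had medians near 0 without a call, over members in both directions. Alb, the gene of serum albumin, was at 0.13 ± 0.14 and Hnf4a, a master regulator of hepatocytes, at 0.02 ± 0.11. Slc10a1, the main bile acid importer, stood at 693 and 715 CPM in the control libraries before and 272 and 215 after, and at 568 and 671 in the HIRA KO libraries before and 252 and 286 after, a log2 fold change of -0.02 ± 0.12, whereas in columns 1 and 2 it was -3.09 ± 0.30, called. Of the 26 hepatocyte genes none was called, with a range from -0.40 to 0.39 and a median of 0.02. The 17 liver identity transcription factors had no call, a median of -0.02 and a range from -0.30 to 0.89, with 6 called lower in columns 1 and 2. The 18 bile acid genes had a median of 0.0017 here, from -0.59 to 1.20 with 2 lower without overlap, and -0.59 there, where 3 were called higher and 8 lower. Of all genes, 4.04% were lower without overlap here and 16.6% were called there.

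Of 39 gene lists, only the HIRA and H3.3 genes, the clock and the brush border held a called gene in columns 3 and 4, and 33 held 1 or more in columns 1 and 2. The shares called over all genes were 0.153% and 16.6%, so a list of many genes can hold a call in columns 1 and 2 at that share alone. List medians ran from -0.57 to 0.42 in columns 3 and 4 and from -1.87 to 2.34 in columns 1 and 2. The lowest medians were those of the mitotic (-0.57) and acute phase genes (-0.54). The highest medians in columns 3 and 4 were those of female-biased (0.42) and male-biased liver genes (0.41), which were 2.34 and -1.87 in columns 1 and 2. Both lists had medians of opposite sign at the 2 times: 0.37 before and -0.56 after for the female-biased, and -0.11 before and 0.99 after for the male-biased genes. The male-biased genes ran from -2.97 to 1.96 and the female-biased from -1.47 to 1.78. Within the male-biased list, Moxd1, with 0 to 55 counts a library, was at -2.97 ± 1.91, Cyp4a12a at 1.96 ± 0.89 and Nudt7 at 0.80 ± 0.23. The errors of most of these genes were wide, and their libraries overlapped in 14 of 15 male-biased genes. Of all genes, 4.79% were higher and 4.04% lower without overlap.

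Metabolic lists had small shifts without calls. Of the 13 fatty acid synthesis genes 12 had a positive log2 fold change (median 0.28), and Thrsp, a lipogenic regulator, stood at 449 and 503 CPM in the control libraries before and 50.1 and 41 after, and at 654 and 951 in the HIRA KO libraries before and 213 and 181 after (1.42 ± 0.31). Of the 33 cytochrome P450 genes of families 1 to 3, 8 were higher without overlap at either time and none lower, against 4.79% and 4.04% of all genes. Cyp2b10, a target of the receptor CAR, stood at 4.23 and 14.1 CPM in the control libraries before and 4.23 and 7.7 after, and at 27.2 and 31.5 in the HIRA KO libraries before and 23.5 and 27 after (1.87 ± 0.39), and Cyp2d10 was at 0.57 ± 0.11. In both, every HIRA KO library was above every control of its time, without a call. The medians were -0.01 for cholesterol synthesis (-0.63 in columns 1 and 2), -0.09 for fatty acid oxidation, 0.12 for glucose metabolism, 0.07 for pericentral and -0.13 for periportal genes.

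In lists of plasma proteins and immunity, 17 of the 18 acute phase genes had a negative log2 fold change (median -0.54). Of the 18, 4 were lower without overlap, against 4.04% of all genes. Serpina3n, a protease inhibitor of that response, stood at 1250 and 589 CPM in the control libraries before and 1050 and 735 after, and at 559 and 515 in the HIRA KO libraries before and 625 and 521 after (-0.71 ± 0.22). The library control before 3 was the highest in that group of values before regeneration, and Saa1, serum amyloid A, stood at 1400 CPM in it against 38.2 to 155 in the other 3. Of the 15 genes of MHC class I presentation, 14 were negative (median -0.19) and none was called. The MHC list was at -0.39 before and 0.06 after regeneration, and its sum at 5020 to 5090 CPM in control and 3830 to 3870 in HIRA KO before and at 5240 to 5680 and 5020 to 6220 after. Of its genes 13 were called lower in columns 1 and 2 (median -0.64). Nlrc5, the activator of these genes, was at -0.40 ± 0.09. The interferon response was at 0.09 here and -1.14 in columns 1 and 2, with 13 of 20 called lower there. Its median here was -0.30 before and 0.30 after regeneration. Of all 20199 genes, 1846 were called lower in columns 1 and 2.

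Markers of the other liver cells had no calls in columns 3 and 4. The 24 stellate cell and matrix genes had a median of 0.12, and of 0.96 in columns 1 and 2, where 10 were called higher. Of all 20199 genes, 1501 were called higher in columns 1 and 2. In columns 3 and 4 the medians were 0.10 for 16 Kupffer cell genes, -0.21 for T and NK cells, -0.07 for B cells, -0.08 for neutrophils and 0.09 for red blood cells. Summed Kupffer cell markers stood at 225 to 609 CPM in control and 352 to 363 in HIRA KO before, and at 960 to 1210 and 1290 to 1440 after regeneration. All 12 endothelial genes were positive, between 0.0094 and 0.28. Summed endothelial markers stood at 397 to 454 CPM in control and 418 to 506 in HIRA KO before, and at 269 to 289 and 319 to 335 after regeneration. Their part in the called genes was not tested.

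The other lists had no call either. Their medians were -0.04 for other H3 chaperones, 0.10 for replication histone genes, 0.11 for p53 targets, 0.01 for immediate early genes, -0.16 for stress of protein folding and amino acids, -0.01 for heat shock, -0.22 for NRF2 targets, 0.11 for fetal liver genes, 0.08 for nuclear genes of oxidative phosphorylation and -0.12 for cytoplasmic ribosomal proteins. Of the 18 replication histone genes tested, 7 were called higher in columns 1 and 2, with a median of 1.03 there. Of all 20199 genes, 1501 were called higher there. The libraries were made from poly-A RNA, so histone transcripts without a poly-A tail are not measured.

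**Figure D5:**
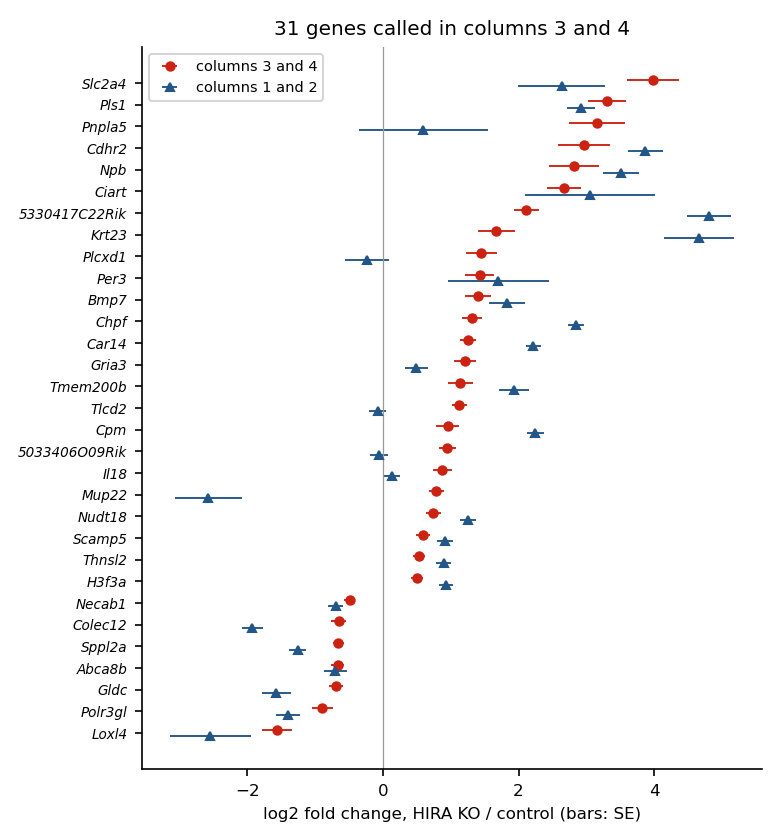
Log2 fold changes of HIRA KO against control with SE for the 31 genes called in columns 3 and 4, in columns 3 and 4 (circles) and in columns 1 and 2 (triangles). For 27 genes the sign is the same, and Mup22 lies at 0.79 in the first and at -2.58 in the second.

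The 31 genes were set beside the same contrast in columns 1 and 2, whose libraries are separate. Of the 31, 23 were also called there, which is 74.2% of the 31 and 0.687% of the 3347, against 16.6% of all genes called there. Of these 23, 22 had the same direction, 15 higher and 7 lower. In 22 of the 31 the log2 fold change had the same sign in both sets and was further from 0 in columns 1 and 2. The higher genes had medians of 1.29 in columns 3 and 4 and 1.76 in columns 1 and 2. The difference between the 2 sets was not tested.

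Of the called genes, 8 were not called in columns 1 and 2. Tlcd2 was at 1.13 ± 0.11 in columns 3 and 4 and at -0.07 ± 0.13 in columns 1 and 2, 5033406O09Rik at 0.95 ± 0.13 and -0.06 ± 0.14, Plcxd1 at 1.45 ± 0.23 and -0.23 ± 0.32, and Il18 at 0.88 ± 0.14 and 0.13 ± 0.11. Pnpla5 was at 3.16 ± 0.41 and 0.60 ± 0.95. Mup22, one of the major urinary proteins, went the other way: it stood at 213 and 195 CPM in the control libraries before and 69.1 and 61.2 after, and at 371 and 282 in the HIRA KO libraries before and 131 and 112 after in columns 3 and 4 (0.79 ± 0.11), and was called lower in columns 1 and 2 (-2.58 ± 0.49). The Mup genes are nearly identical in sequence, so its counts are uncertain. From the other side, 72.3% of the 3347 genes called in columns 1 and 2 had the same sign in columns 3 and 4, and 57.7% of the genes not called there did. Their median log2 fold change was 0.16 here against 1.04 there for the higher genes and -0.095 against -0.70 for the lower ones.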

How the data were processed

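Poly-A RNA from liver had been sequenced for 16 libraries in 4 groups of 4. Per the methods of the study, the authors aligned the reads to mm10 with STAR, produced gene counts with HOMER and tested them with DESeq2, whereas the submitters' processing notes list STAR, HTSeq and Cufflinks without their roles. The deposited table holds whole-number counts for 55421 gene IDs, of which 54673 matched GENCODE M21 (GRCm38), the source of coordinates and gene types. A second deposited table holds FPKM, whose tool is not stated, and its empty cells were read as 0.

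The columns numbered 3 and 4 were used, 8 libraries with 15103059 to 19519139 counts. This depth sets the precision of each value, and intervals cover counting error only. Members, gene lists and the rule for named genes were chosen with earlier results of these data known. Genes with at least 10 counts over the 8 libraries (20199) were fitted with edgeR (version 4.0.16, R version 4.3.3): TMM factors, genotype and time as additive terms, robust quasi-likelihood test, Benjamini-Hochberg adjustment over all genes, called at an adjusted p under 0.05. A second fit added the interaction of genotype and time, and the same additive fit was made for columns 1 and 2. SE was taken as the size of the log2 fold change over the root of F. The CPM are per gene without length, so they are not compared between genes. The labels list separate samples, so p-values measure the spread between these libraries, and tissues of 1 mouse could not be paired. No columns were found to be copies: replicates differed by chi-square values of 12.4 or more per degree of freedom.

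Named genes were the Hira and H3.3 genes, Hnf4a, Alb, Slc10a1 and Mki67, then the 12 higher and 12 lower genes that were furthest from 0, with a mean of at least 1 CPM and no overlap within each time, uncalled genes filling open places, 3 genes in each direction for time and for the interaction, and up to 4 genes of each list. The other called genes, Dbp, Tef, Top2a and a few further list members were added after their values were seen. Alternatives were DESeq2 (version 1.42.0), its size factors, other filters, all 16 columns, 1 time point only, log2(FPKM + 1) with limma (version 3.58.1) and leaving out each library. The scripts were tested on simulated data, where the share of false calls was above the nominal level in the fit of genotype and in that of the interaction.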

Additional observations from a re-analysis of the deposited data

Results flagged for a closer look

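mt-Atp6 was marked because its difference between HIRA KO and control was not the same before and after regeneration: the interaction was 2.65 on the log2 scale (edgeR, adjusted p = 0.0164), with -1.82 before and 0.83 after. mt-Nd3 was marked because both HIRA KO libraries were below both controls before regeneration and above both after it, with a log2 fold change of 1.11 after. The gene was not called for the interaction (edgeR, adjusted p = 0.112). Mup22 was marked because its HIRA KO libraries lay above the controls in columns 3 and 4 and below them in columns 1 and 2, where the log2 fold change was -2.58. The difference between the 2 sets of columns was not tested.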

How the results depend on the processing

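No paired analysis was possible because the columns carry a running number that is in no label and do not give the replicate numbers or the mice. The 31 calls between HIRA KO and control became 153 with DESeq2 (104 higher, 49 lower, all 31 among them), 393 with every gene of at least 1 count, 54 in a fit of all 16 columns with 8 group means, 814 with all 16 columns compared 8 against 8, and 0 on log2(FPKM + 1) with limma-trend, where 1590 genes had an unadjusted p under 0.05. They were 35 with DESeq2 size factors, 26 with filterByExpr, 22 before and 33 after regeneration alone, 22 without robust estimation, and 39 against all 8 control columns, an alternative chosen after seeing the data. Leaving out 1 library gave 15 (without control after 4) to 66 (without HIRA KO after 4), with 20 without HIRA KO before 4 and 51 without control before 3. Of the 31 genes, 13 were called in each of the 8 such fits, among them Slc2a4, Pls1, Cdhr2, Ciart, Pnpla5 and Npb, while H3f3a, Cpm, Scamp5 and Thnsl2 were called in 1 of 8. The sign of the 31 genes was kept in every setting but 1: Mup22 was at -0.17 with all 16 columns compared 8 against 8. The single interaction call became 64 with DESeq2, 0 with filterByExpr, 302 with every gene of at least 1 count and 0 with 8 group means, where edgeR was used except in the first. It ran from 0 to 38 when 1 library was left out. The count for regeneration ran from 4108 to 5273 and that of columns 1 and 2 from 2196 (without control after 1) to 3365. The cause of these changes was not tested. With 2 libraries per genotype and time, and 1 left in some of these fits, the lone library is taken to vary like the others.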
